A study of Tachysurus vachellii with 12 samples.

Results

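The genes described here are ARG2, ass1 and Odc1, enzymes of arginine and polyamine metabolism, in the liver of a catfish exposed to low oxygen. They were taken from the deposited mRNA table by gene name, ignoring case, and each name belonged to 1 assembled component, so 3 of 34744 components were members. The fish were juvenile Tachysurus vachellii, called Pelteobagrus vachelli in the series title. Hypoxia fish had spent 4 h at 0.7 mg/L oxygen after 30 to 35 min of bubbling with nitrogen gas. Control fish were taken from the same 3 aquaria at 6.8 mg/L, before oxygen was lowered, so oxygen level and time of sampling cannot be told apart. Each group had 3 pools of 5 livers, lettered a, b and c, with 1 mRNA library per pool. No genotype or strain is named in the labels, and pooling hides differences between fish. A component is a group of transcripts that the Trinity assembly placed together, and it stands for a gene here.

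Argininosuccinate synthase, the product of ass1, joins citrulline and aspartate, the step that commits nitrogen to new arginine. Arginase splits arginine into urea and ornithine, and in mammals ARG2 encodes its mitochondrial form and ARG1 the cytosolic form abundant in liver. Ornithine decarboxylase, the product of Odc1, turns ornithine into putrescine and so starts polyamine synthesis, while ornithine aminotransferase sends ornithine toward glutamate and proline. Polyamines bind nucleic acids and support growth and translation. Most adult teleosts release nitrogen mainly as ammonia, so a full urea cycle is not the usual main route of nitrogen loss in fish liver.

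In hypoxic livers the ARG2 and ass1 messages rose and the Odc1 message fell. In the authors' deposited RPKM, which are reads per kilobase of transcript and per 1000000 reads, ARG2 averaged 5.94 ± 2.57 in hypoxia pools and 1.66 ± 0.35 in control pools (SD, n = 3 each). The ass1 message averaged 18.1 ± 9.28 RPKM in hypoxia pools and 4.59 ± 2.31 RPKM in control pools. Odc1 averaged 4.05 ± 0.24 RPKM in hypoxia pools and 7.14 ± 1.49 RPKM in control pools. Counts were tested across all genes with edgeR's quasi-likelihood test, and a gene was called at a Benjamini-Hochberg adjusted p under 0.05. That test called 6.36% of 25415 components, 4.56% higher in hypoxia and 1.8% lower. All 3 members were called, and their groups did not overlap, which held for 28.3% of all components tested. The members were chosen with results of these data known, so these counts are a description and are not read against those shares. Each member lost its call when any 1 library of letter a or b was left out. For ass1 the call ended in 8 of 14 alternatives, and the authors' deposited table marked no member as significant.

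The libraries held 32652402 to 35852327 counts each. Hypoxia c and control c stood apart from the other 4 libraries on the second principal component of log2 counts per 1000000 reads (CPM), at -61.0 and -62.3, against 14.3 to 46.3. The 8 hepatocyte markers named in the table summed to 31500, 35100 and 34500 CPM in hypoxia pools a to c and to 30300, 34500 and 38300 CPM in control pools a to c. The sum was led by apolipoprotein B and the fibrinogen chains, secreted products of liver cells, and no component used here was named alb. It does not show that each marker was level. Groups did not overlap for apoa1, higher in hypoxia (56.3 against 22.0 CPM, edgeR adjusted p = 0.077), or fabp1, lower (543 against 662 CPM, 0.35). The components named TTR and fabp1 carried other annotations, 5-hydroxyisourate hydrolase and an ileal fatty acid-binding protein. In pooled bulk tissue, fewer cells of a type and less RNA per cell cannot be told apart.

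ARG2 (comp55959_c0, annotated as arginase, 1685 bases, 1 transcript) had 14.1, 10.9 and 5.19 CPM in hypoxia pools a to c, against 3.18, 2.24 and 3.24 CPM in control pools a to c. All 3 hypoxia pools lay above all 3 control pools, and the lowest hypoxia pool was 1.6 times the highest control pool. Groups failed to overlap in the same direction in 14.6% of all components tested. The log2 fold change was 1.8 (SE 0.35, edgeR adjusted p = 0.019), a 3.48-fold rise. The call of ARG2 ended without hypoxia a (adjusted p = 0.069), hypoxia b (0.077), control a (0.089) or control b (0.1). Without both libraries of letter c the log2 fold change was 2.2 (adjusted p = 8.6e-05). Hypoxia c was the lowest hypoxia pool and control c the highest control pool, so a larger change followed from the choice. No support for the call is drawn from that fit. Over all components it called 2337 higher and 1479 lower, against 1159 and 458 with all libraries.

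The ass1 message (comp7575_c0, annotated as argininosuccinate synthase, 1341 bases, 1 transcript) had 36.3, 25.0 and 10.9 CPM in hypoxia pools a to c, against 3.7, 5.11 and 10.3 CPM in control pools a to c. The groups did not overlap, but hypoxia c and control c nearly touched, with a ratio of 1.06. The log2 fold change was 1.92 (SE 0.48, edgeR adjusted p = 0.0476), a 3.77-fold rise. This adjusted p lay near the threshold, and the call ended under other settings of the test, with an adjusted p of 0.059 with the pool letter as a replicate block, 0.059 in limma-voom, 0.058 with no filter on low counts and 0.05003 with a stricter filter. It also ended without hypoxia a (0.15), hypoxia b (0.14), control a (0.18) or control b (0.18). Without both libraries of letter c the log2 fold change was 2.8 (adjusted p = 1.5e-05). Those libraries were the lowest hypoxia pool and the highest control pool of ass1, so a larger change followed from the choice. No support for the call is drawn from that fit.

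Odc1 (comp8051_c0, annotated as ornithine decarboxylase, 1804 bases, 1 transcript) had 7.46, 6.91 and 7.58 CPM in hypoxia pools a to c, against 14.8, 14.3 and 10.7 CPM in control pools a to c. The hypoxia pools lay close together and all below the control pools, of which control c was lowest. Groups failed to overlap in this direction in 13.6% of all components tested. The log2 fold change was -0.86 (SE 0.18, edgeR adjusted p = 0.026), so the hypoxia level was 0.552 of the control level. The call of Odc1 ended without hypoxia a (adjusted p = 0.077), hypoxia b (0.11), control a (0.13) or control b (0.11). Without both libraries of letter c the log2 fold change was -1.02 (adjusted p = 0.0016). Those libraries were the highest hypoxia pool and the lowest control pool of Odc1, so a larger change followed from the choice. No support for the call is drawn from that fit.

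**Figure D1:**
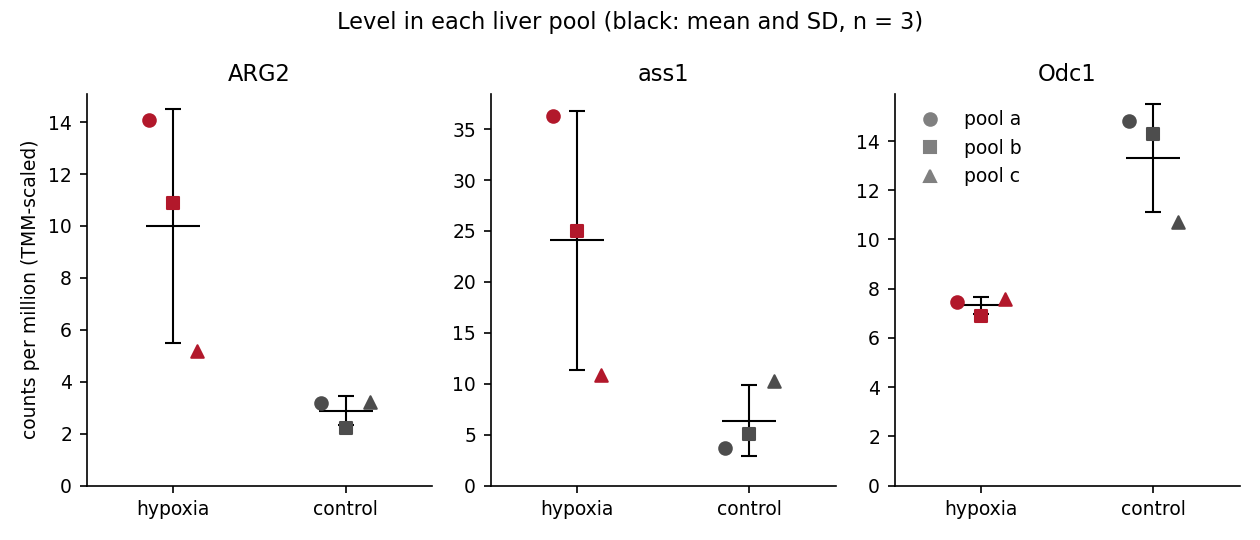
Levels of ARG2, ass1 and Odc1 in each liver pool, in TMM-scaled CPM, with hypoxia left and control right in each panel; symbols mark pools a, b and c, and black bars give the mean and SD of 3 pools. ARG2 and ass1 lie higher in hypoxia with a wide spread (5.19 to 14.1 and 10.9 to 36.3), and Odc1 lies lower with hypoxia pools between 6.91 and 7.58.

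The authors' deposited table gave the same directions without marking any of the members as significant. Its log2 fold changes were 1.8 for ARG2, 1.91 for ass1 and -0.87 for Odc1, and its FDR values, each equal to the p-value column, were 0.11, 0.21 and 0.076. That deposited table marked 961 of 34744 components (2.77%), all with an FDR of at most 0.05 and an absolute log2 fold change of at least 1.

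Levels of different genes were compared per length, in the authors' deposited RPKM. In hypoxia pools a to c, ass1 had 26.98, 18.86 and 8.46 RPKM, ARG2 had 8.22, 6.45 and 3.16 RPKM and Odc1 had 4.06, 3.81 and 4.29 RPKM. In control pools a to c, ass1 had 2.88, 3.68 and 7.22 RPKM, ARG2 had 1.94, 1.27 and 1.78 RPKM and Odc1 had 8.39, 7.54 and 5.49 RPKM. In hypoxia ass1 was highest in every pool, and ARG2 and Odc1 overlapped. In controls ARG2 was lowest in every pool, and ass1 and Odc1 overlapped.

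Arginase makes the ornithine that ornithine decarboxylase uses, so their messages were also set against each other within each library. The ratio of ARG2 to Odc1, in CPM per kilobase, was 2.02, 1.69 and 0.733 in hypoxia pools a to c, against 0.231, 0.168 and 0.323 in control pools a to c. Odc1 therefore exceeded ARG2 in every control pool and in hypoxia c, and ARG2 exceeded Odc1 in hypoxia a and b. The mean log2 ratio was 2.55 higher in hypoxia (two-sided exact permutation test p = 0.1, the smallest that 3 against 3 pools allow). Every hypoxia pool had more ARG2 and less Odc1 than every control pool, so the ratios had to separate. The test could give no other p, and no conclusion is drawn from it. ARG2 and Odc1 were also chosen with results of these data known. The mean log2 ratio was 2.26 to 2.99 higher with any 1 library left out.

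**Figure D2:**
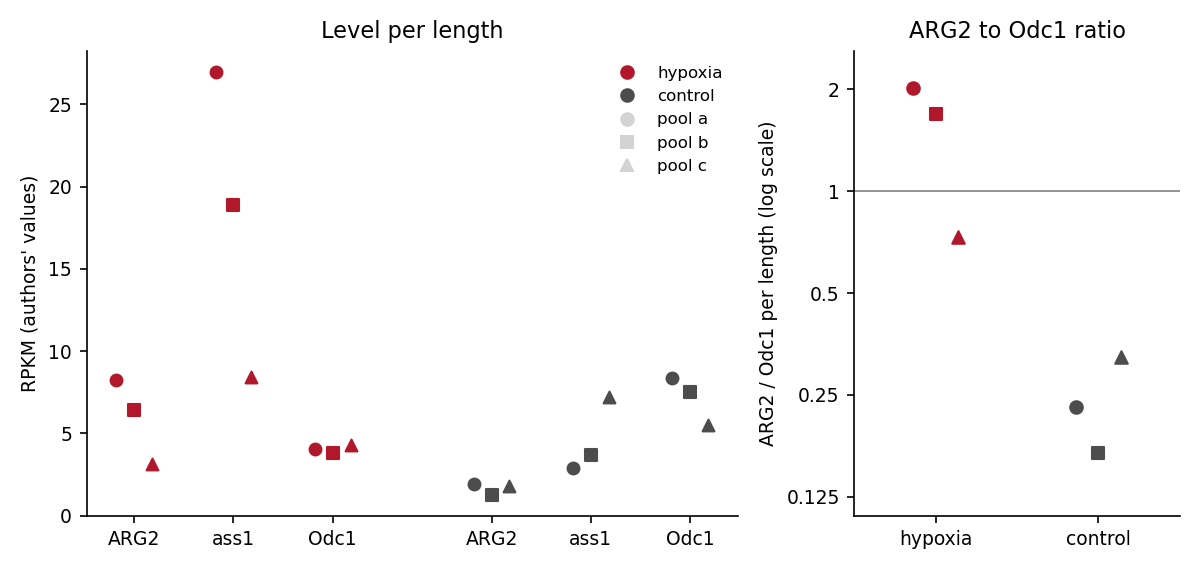
Left, the authors' RPKM of the genes in each pool, hypoxia in red and control in grey, with pools a, b and c marked by symbol; right, the ratio of ARG2 to Odc1 per length on a log2 axis, with a line at 1. ass1 leads in all hypoxia pools, and the ratio is 0.733 to 2.02 in hypoxia and 0.168 to 0.323 in control.

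The difference between hypoxia and control was not the same size under each pool letter. What a letter stands for is not labelled, so pools of equal letter are not known to be pairs. The log2 ratio of hypoxia to control for ARG2 was 2.14, 2.28 and 0.68 in pools lettered a to c. For ass1 it was 3.29, 2.29 and 0.08, and for Odc1 it was -0.99, -1.05 and -0.5. All 3 genes thus differed least between the c pools. Among the 1159 components that rose, the median log2 ratio was 1.75, 1.5 and 1.53 in pools lettered a to c. Among the 458 that fell it was -1.23, -1.03 and -1.02. These medians used levels with 0.1 CPM added, which the members' ratios did not. The components were called from these same libraries, which favours genes that differ under every letter. The medians are therefore a description, and the members are not read against them. With 1 pool per letter and group, the difference between letters was not tested.

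**Figure D3:**
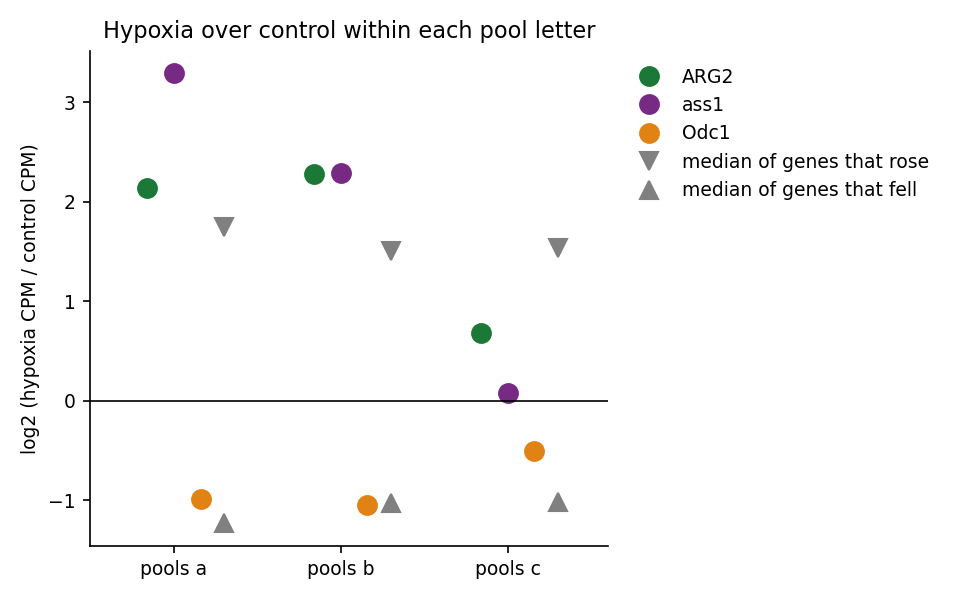
Log2 ratio of hypoxia to control CPM within pools a, b and c for ARG2, ass1 and Odc1 (circles, spread sideways so that they do not cover each other), with the medians of all components that rose or fell (triangles). In letter c the members stand at 0.68, 0.08 and -0.5, nearer 0 than in letters a and b. No label says that pools of equal letter are pairs. The grey medians in c are 1.53 and -1.02, and come from components called in these same libraries.

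Other cell types were followed by their marker genes, whose part in these results was not tested. The 6 exocrine pancreas markers named in the table summed to 7530, 2360 and 1880 CPM in hypoxia pools a to c and to 5090, 1630 and 94.9 CPM in control pools a to c. This sum, ARG2 and ass1 were all highest in hypoxia a and lowest in hypoxia c. In controls ass1 was highest in control c, where the sum was lowest. ARG2 had 3.18, 2.24 and 3.24 CPM in control pools a to c, in another order than the sum. Odc1 had 14.8, 14.3 and 10.7 CPM in control pools a to c, in the same order as the sum. In hypoxia pools a to c Odc1 had 7.46, 6.91 and 7.58 CPM, in another order than the sum. The 7 macrophage and other leukocyte markers named summed to 32.1, 48.3 and 51.3 CPM in hypoxia pools a to c and to 46.7, 48.9 and 39.4 CPM in control pools a to c, so the groups overlapped. The 4 erythroid markers summed to 590, 1510 and 2490 CPM in hypoxia pools a to c and to 1890, 2560 and 1260 CPM in control pools a to c. Among hypoxia pools they were highest in hypoxia c, where ARG2 and ass1 were lowest. Among control pools they were highest in control b, where ARG2 was lowest, though ass1 was lowest in control a. They were lowest in control c, where ARG2 and ass1 were highest. Odc1 and the erythroid sum were both highest in hypoxia c and lowest in control c, while the other pools were ordered differently. The 9 markers of endothelium, stellate and bile duct cells summed to 1530 to 1910 CPM in hypoxia and 1540 to 2030 CPM in control. Most of this sum was KRT19, COL1A1 and krt18 (697, 456 and 326 CPM in hypoxia a), so it says little of endothelium. Groups did not overlap for Tie1, lower in hypoxia (13.4 against 20.4 CPM), or KRT19, higher (663 against 595 CPM). They overlapped for CDH5 and KDR. COL1A2 had 22.1 CPM in hypoxia b and at most 1.96 CPM in any other pool. No tested marker of any of these lists, nor of the hepatocyte list, passed the test, and no marker named in the table was at 0 in all libraries. The marker STAB2 was not tested, with 0.363, 0.166 and 0.416 CPM in hypoxia pools a to c and 0.117, 0 and 0.0623 CPM in control pools a to c. Defining markers under whose name no component stood included mpeg1, cd68, mpx and gata1.

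The wider pathway was read from 10 lists of genes, with the most abundant component standing for each gene. Of 58 genes tested, the members included, 5 rose and 2 fell, with a median log2 fold change of 0.05, against 0 for all components. Without the members, 3 of 55 rose (5.45%) and 1 fell (1.82%), against 4.56% and 1.8% of all components tested. The 3 were Prodh, ATP13A3 and OAT, and the gene that fell was enoph1. The lists were written with earlier results of these data known, so their shares are a description and no conclusion is drawn from them. With all components of each name counted, members included, 8 rose. The count that rose, members included, was 0 without hypoxia a, hypoxia b, control a or control b, 8 without hypoxia c, and 8 with the letter as a replicate block. The count that fell was 1 without hypoxia a, and 0 without hypoxia b, control a or control b. Without both libraries of letter c, 11 rose and 7 fell, and over all components 2337 were called higher and 1479 lower.

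Of 7 genes in the urea cycle list, ass1 and ARG2 rose, none fell and 5 did not pass (median log2 fold change 0.75). ARG1 (comp33615_c0) carried the same arginase ortholog group as ARG2. It had 16.76, 11.16 and 9.9 RPKM in hypoxia pools a to c, against 7.91, 7.99 and 5.35 RPKM in control pools a to c. The groups did not overlap, and the log2 fold change was 0.79 (SE 0.24, edgeR adjusted p = 0.095, or 0.034 with the replicate block). ARG1 passed in only 3 of 13 alternatives, the replicate block among them, and did not pass in DESeq2 or limma-voom. The ratio of ARG2 to ARG1 per length was 0.494, 0.583 and 0.321 in hypoxia pools a to c, against 0.247, 0.16 and 0.335 in control pools a to c. These ratios overlapped, and the mean log2 ratio was 0.93 higher in hypoxia (two-sided exact permutation p = 0.2, where 3 against 3 pools cannot go below 0.1, so the test could not reach 0.05; chosen after the values were seen). ARG2 made up 33.1%, 36.8% and 24.3% of the arginase message per length in hypoxia pools a to c, against 19.8%, 13.8% and 25.1% in control pools a to c. ASL, the lyase that follows argininosuccinate synthase, was near 1 CPM, with 0.775 ± 0.0872 CPM in hypoxia and 1.03 ± 0.276 CPM in control (edgeR adjusted p = 0.5). No component used here was named cps1 or otc, the genes of the mitochondrial entry steps of the cycle, although RefSeq lists 1 gene under each name in this species (assembly HZAU_Pvac_v1). Of the members, it lists 1 gene each under arg2 and ass1 and 0 under odc1. Only names were looked up, so the names of all members rest on the deposited annotation.

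Polyamine synthesis held 4 genes, of which Odc1 fell, none rose and 3 did not pass (median -0.15). The enzyme that supplies the aminopropyl donor, amd1, was the most abundant, at 20.9 ± 2.39 CPM in hypoxia and 17.7 ± 1.47 CPM in control (log2 fold change 0.24, edgeR adjusted p = 0.44). For Srm, spermidine synthase, the log2 fold change was -0.38 (adjusted p = 0.32). Srm had 6.01, 5.94 and 5.89 CPM in hypoxia pools a to c, all below the 7.38, 6.15 and 9.75 CPM of control pools a to c. Like Odc1, it was thus among the 13.6% of components without overlap in this direction. For SMS, spermine synthase, the log2 fold change was 0.09 (adjusted p = 0.9). Odc1 was thus the only gene of this list to pass, and whether its change differed from that of the other 3 was not tested.

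Antizymes bind ornithine decarboxylase and send it to the proteasome, and antizyme inhibitors, which resemble the enzyme, release it. None of the 3 genes of this list passed (median 0.18). AZIN1 (comp17143_c0) had 216 ± 85.0 CPM in hypoxia and 181 ± 47.7 CPM in control. It and a second AZIN1 component shared the ortholog group of ornithine decarboxylase with Odc1. A less abundant second component of antizyme 2, Oaz2 (comp15590_c0), was named after its values were seen. It had 26.3, 28.6 and 26.3 CPM in hypoxia pools a to c, against 13.8, 13.5 and 13.8 CPM in control pools a to c. Pools within a group were close, and this component rose by 0.98 on the log2 scale (SE 0.14, edgeR adjusted p = 0.0063), with 0.93, 1.08 and 0.93 in pools lettered a to c. Its call ended only without control a, among 13 alternatives. The main oaz2 component (comp20436_c0) had 198 ± 21.8 CPM in hypoxia and 184 ± 19.5 CPM in control (adjusted p = 0.77). Per length it was above AZIN1, at means of 144 RPKM in hypoxia and 131 RPKM in control, against 69.7 RPKM in hypoxia and 57.1 RPKM in control for AZIN1.

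Among 6 genes of polyamine breakdown and transport, ATP13A3 rose, none fell and 5 did not pass (median 0.05). ATP13A3, a membrane pump that carries polyamines in mammals, had 339, 253 and 230 CPM in hypoxia pools a to c, against 135, 147 and 102 CPM in control pools a to c. All hypoxia pools exceeded all controls, with a log2 fold change of 1.1 (SE 0.22, edgeR adjusted p = 0.021). Its call was lost when hypoxia a, hypoxia b, control a or control b was left out, within a range of 0.91 to 1.21 over 13 alternatives. SAT1, which acetylates spermidine and spermine for export or breakdown, was the most abundant of the list and stood at 275 ± 42.5 CPM in hypoxia and 270 ± 45.0 CPM in control (adjusted p = 0.96). PAOX, which oxidizes the acetylated forms, did not pass at a log2 fold change of 1.15 (edgeR adjusted p = 0.07). None of 3 genes of hypusine formation, which uses spermidine to modify EIF5A, passed (median -0.06), and EIF5A had 118 ± 23.7 CPM in hypoxia and 136 ± 11.9 CPM in control.

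Of 9 genes that exchange ornithine, proline and glutamate, OAT and Prodh rose, none fell and 7 did not pass (median 0.23). OAT, ornithine aminotransferase, had 72.0, 72.6 and 49.0 CPM in hypoxia pools a to c, against 32.4, 29.9 and 42.7 CPM in control pools a to c. The groups did not overlap, with hypoxia c and control c nearest each other. Its log2 fold change was 0.88 (SE 0.22, edgeR adjusted p = 0.046). The call ended under limma-voom, when no filter was applied, and without hypoxia a, hypoxia b, control a or control b. The log2 change of OAT ran from 0.77 to 1.21 over 13 alternatives. Prodh (comp18719_c1), proline dehydrogenase, which starts proline breakdown, had 107, 52.8 and 13.4 CPM in hypoxia pools a to c, against 7.48, 5.57 and 7.92 CPM in control pools a to c. The hypoxia pools were far apart from each other, though all above the controls. Prodh rose by 3.04 on the log2 scale (SE 0.61, adjusted p = 0.022), and its log2 ratios in pools lettered a to c were 3.83, 3.25 and 0.75. Prodh lost its call in limma-voom and without hypoxia a, hypoxia b, control a or control b, with a range of 2.23 to 3.61. The most abundant gene, glud1, glutamate dehydrogenase, had 676 ± 249 CPM in hypoxia and 602 ± 109 CPM in control (adjusted p = 0.78).

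None of 5 nitric oxide and dimethylarginine genes passed (median 0.08), and AGXT2, the most abundant, had 72.4 ± 9.31 CPM in hypoxia and 71.1 ± 8.41 CPM in control. None of 4 creatine and agmatine genes passed (median 0.18), with AGMAT, agmatinase, at 281 ± 43.5 CPM in hypoxia and 309 ± 45.5 CPM in control. None of 9 genes of arginine carriage and arginyl transfer passed (median -0.24), with the cationic amino acid carrier slc7a2 (comp19980_c1) at 157 ± 12.2 CPM in hypoxia and 210 ± 60.1 CPM in control. Of 8 genes that supply S-adenosylmethionine or salvage methylthioadenosine, the by-product of spermidine and spermine synthesis, enoph1 fell and 7 did not pass (median -0.19). The salvage enzyme gene enoph1 had 3.96, 3.76 and 3.39 CPM in hypoxia pools a to c, against 6.61, 7.95 and 7.26 CPM in control pools a to c. The groups were well apart and each was tight (log2 fold change -0.97, SE 0.18, edgeR adjusted p = 0.016), though the call ended without hypoxia b, control a or control b. Mat1a, the most abundant of that list, had 498 ± 133 CPM in hypoxia and 729 ± 270 CPM in control (adjusted p = 0.36).

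**Figure D4:**
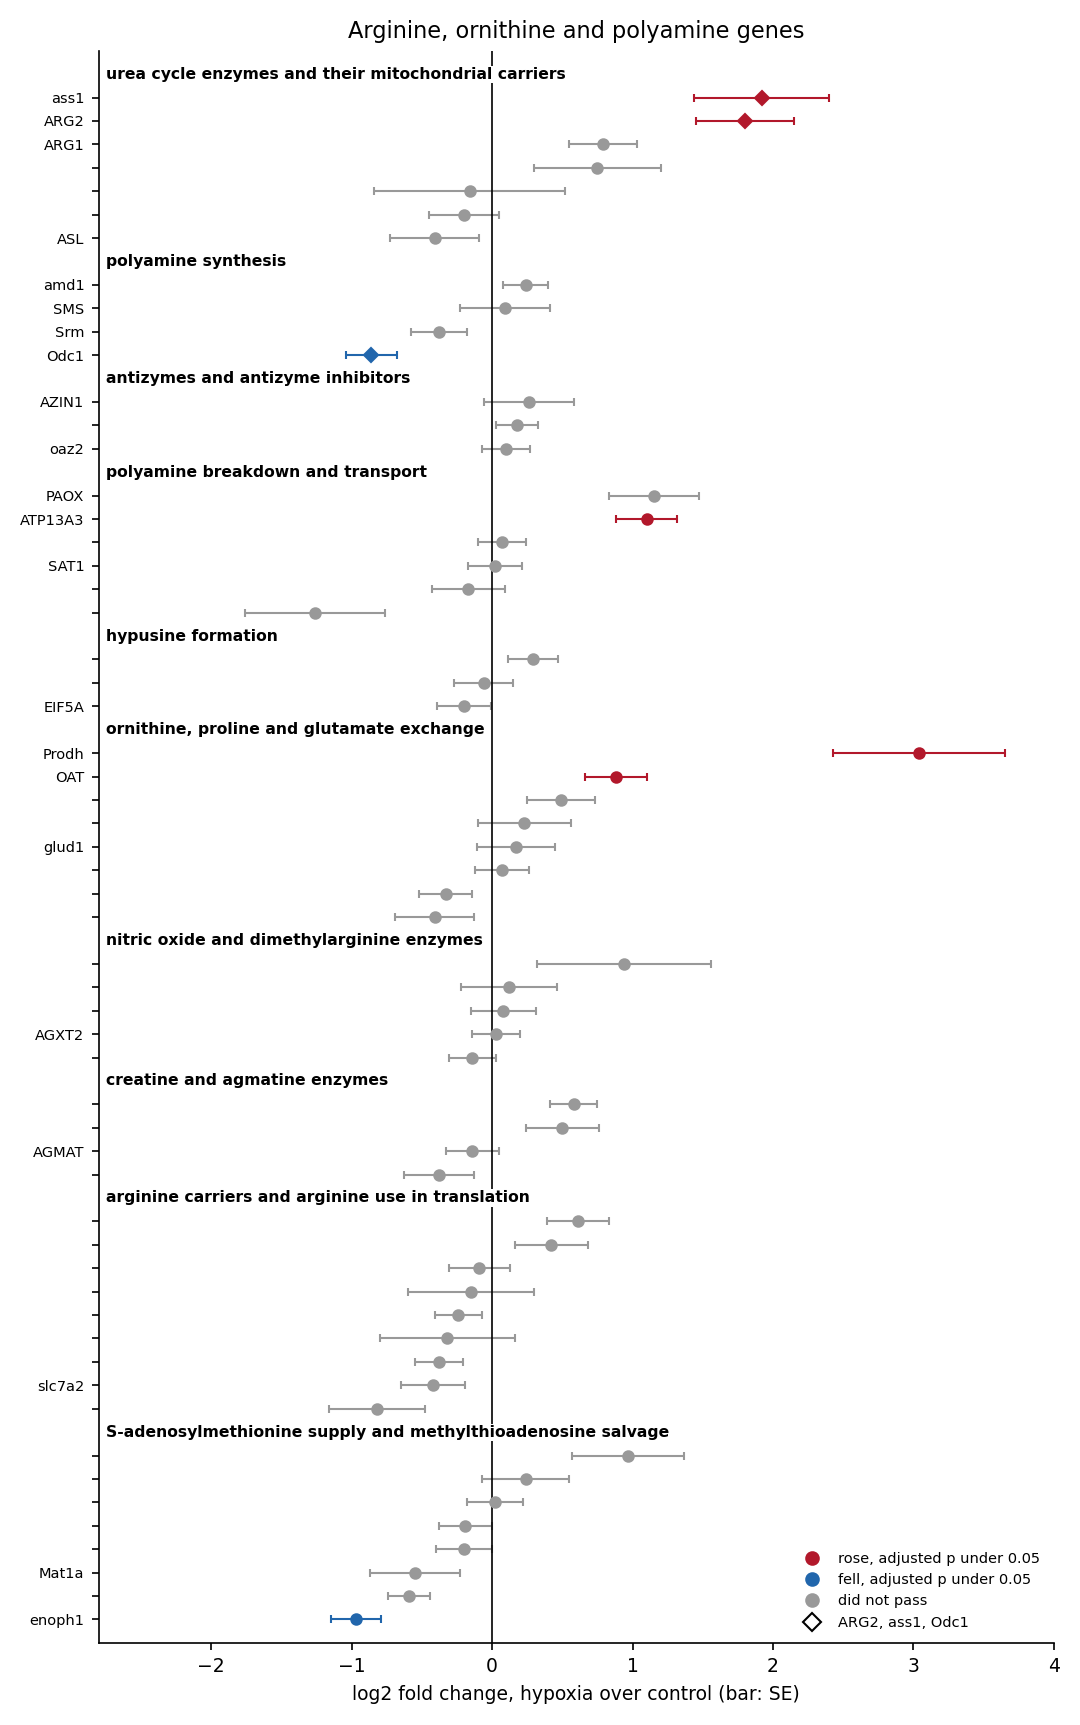
Log2 fold change of hypoxia over control with its SE for 57 of the 58 genes of 10 lists, each gene by its most abundant component and named where the text names it; red rose, blue fell, grey did not pass at an adjusted p of 0.05, and diamonds mark ARG2, ass1 and Odc1. The colored points are ass1, ARG2, ATP13A3, Prodh and OAT on the right and Odc1 and enoph1 on the left.

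The KEGG map of arginine and proline metabolism, as assigned in the deposited table, gave a wider view chosen after the data were seen. Of 63 components tested in it, 7 rose (11.1%) and 2 fell (3.17%), against 4.56% and 1.8% of all components, with a median log2 fold change of 0.12. The members ARG2, ass1 and Odc1 are among these 9, as are OAT and 2 Prodh components. As the members were chosen with results known, the shares of this map are not read against those of all components. The 9 also included P4HA1, a collagen prolyl hydroxylase, which rose by 3.82, and CKM, muscle creatine kinase. CKM had 0.234, 0.304 and 0.531 CPM in hypoxia pools a to c, against 23.6, 0.182 and 18.1 CPM in control pools a to c, so its groups overlapped and control b lay below every hypoxia pool.

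Genes with a pattern most like each member were found by Pearson correlation of log2 CPM over the 6 libraries, among 4817 or 4818 named components with a mean of at least 10 CPM. Each r rests on only 6 libraries in 2 groups and is given as a description. Among the nearest to ARG2 were JUN (r = 0.9943) and Prodh (0.9884), and most opposite were TBX10 (-0.9944), Myo9b (-0.9927) and the component comp19389_c0 named TFRC (-0.9897). Of these only Prodh passed. The log2 fold changes of JUN, TBX10, Myo9b and TFRC were 0.7, -0.65, -0.46 and -0.41 (edgeR adjusted p = 0.07, 0.066, 0.15 and 0.19). Nearest to ass1 were gnb1 (0.9978), TEX264 (0.9957) and COPA (0.9944), and most opposite were MARK3 (-0.9918), GLCAK2 (-0.9829) and Gm2a (-0.981). The log2 fold changes of the ass1 neighbours were only 0.17, 0.6 and 0.38, and none passed. Nearest to Odc1 were Ugt2a2 (0.9914), Mical2 (0.9906, a component annotated as actinin alpha) and HS3ST3B1 (0.9903). All of these fell (log2 fold changes -1.69, -1.16 and -0.95, edgeR adjusted p = 0.0021, 0.013 and 0.018). Most opposite to Odc1 were Irak3 (-0.9935), jup (-0.9909) and PRUNE (-0.9905), of which PRUNE rose (log2 fold change 0.87, adjusted p = 0.026).

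**Figure D5:**
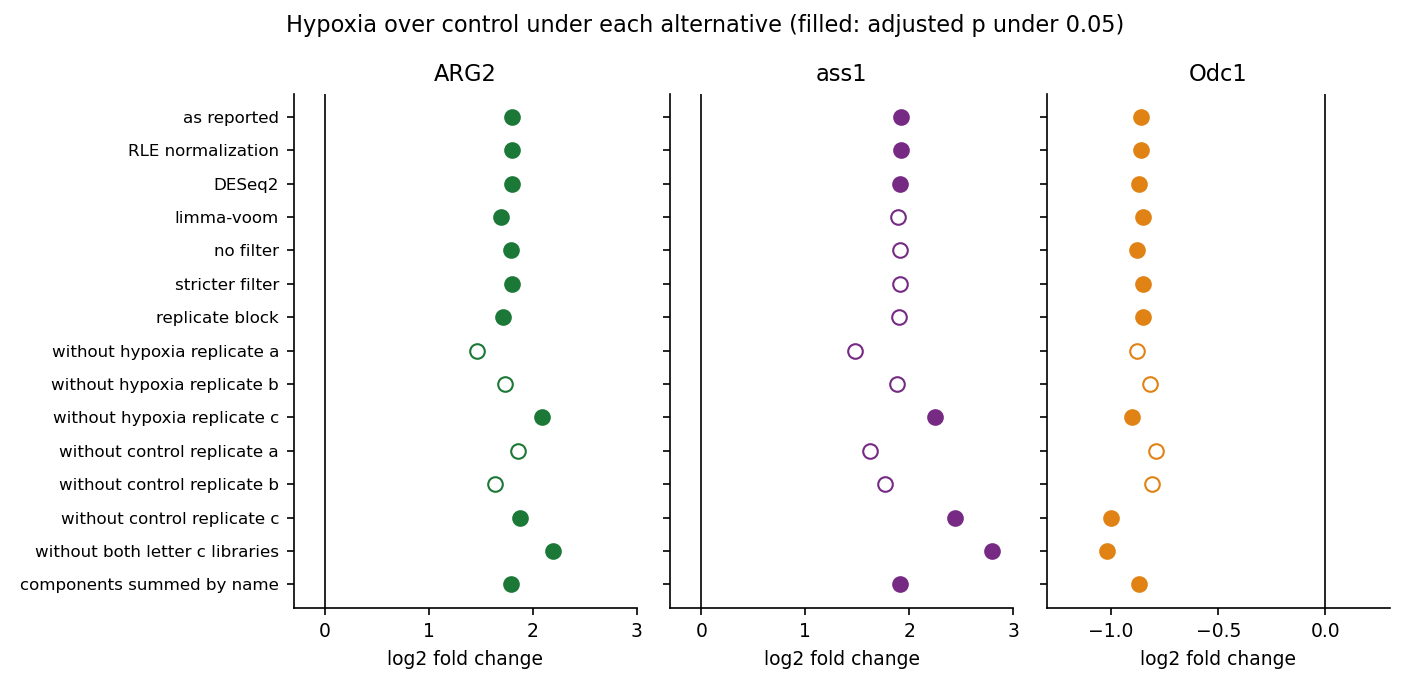
Log2 fold change of hypoxia over control for ARG2, ass1 and Odc1 as reported and under 14 alternatives, filled where the adjusted p was under 0.05 and open where it was not. Directions hold throughout, from 1.46 to 2.2, 1.48 to 2.8 and -1.02 to -0.79. As the groups did not overlap, leaving out libraries could not reverse them. Points are open where a library of letter a or b alone was left out. For ass1 they are also open with limma-voom, no filter, the stricter filter and the replicate block.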

How the data were processed

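Liver mRNA was measured in 3 hypoxia and 3 control pools. Per the labels' protocols, reads were trimmed and assembled with Trinity. RSEM 1.2.3 and DESeq are listed per the submitters' processing notes. The build of any genome is not given in the sources used here. The deposited table holds estimated counts (expected counts) per component, RPKM made by the authors, the component length, the authors' log2 fold change and their p-value, which equals the FDR in all 34744 components. All columns of per-sample values were assigned by name and title. Gene names were used as deposited, and some disagree with the annotation of their component, as for Slc25a12 of the urea cycle list, annotated as olfactory receptor. The small RNA table was not used.

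Expected counts were rounded and tested in edgeR 4.0.16 (R 4.3.3) with TMM, filterByExpr and the quasi-likelihood test, hypoxia against control, two-sided, adjusted over 25415 components. SE was taken as |log2 fold change| over the root of the F statistic. CPM used TMM-scaled library sizes, and log2 CPM a prior count of 2. Estimates for the members lay within 0.28 of whole reads. The counts say nothing of strand, and reads shared by related genes may be split. Alternatives were RLE normalization, DESeq2 1.42.0, limma-voom (limma 3.58.1), no filter, a filter of 1 CPM in 3 libraries, the letter as a block, each library left out, both letter c libraries left out, and components summed by name. The fits were tested on simulated data. Python 3.11.15, scipy 1.17.1 and matplotlib 3.10.9 gave permutation tests and plots.

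Whether letters pair the pools was checked by correlating, across genes (not independent of each other), each library's deviations from its group mean. These were 0.15, 0.19 and 0.31 between equal letters a, b and c, and -0.29 to 0.18 between unequal ones. Every pair of equal letters passed 0.1, but so did hypoxia a with control b (0.18), above the a pools (0.15). The check thus did not settle whether pools are paired, and the letter was used as a block only as an alternative. What a letter stands for is not labelled. Each replicate is a pool of 5 livers per the labels.

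The members and lists were chosen with earlier results of these data known. Genes named are the members, listed genes past the threshold, the gene of each list with the highest mean CPM (not per length), and the 3 named components most and least correlated with each member. ARG1, the second Oaz2 component, and other listed genes given without a call were named after their values were seen. Some genes that this rule names are not reported here.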

Additional observations from a re-analysis of the deposited data

How the results depend on the processing

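ARG2, ass1 and Odc1 kept their directions in all 14 alternatives. As their groups did not overlap, leaving out libraries could not reverse a direction. Each name had 1 component, so summing by name left the members' counts unchanged. With each library left out in turn, log2 fold changes ran from 1.46 to 2.09 for ARG2, 1.48 to 2.44 for ass1 and -1.0 to -0.79 for Odc1. Their edgeR adjusted p ran from 0.0017 to 0.1, 0.012 to 0.18 and 0.012 to 0.13. Each lost the call in 4 of these 6 fits, those without a library of letter a or b. Each kept it without hypoxia c or control c. All of these fits have fewer samples, and why calls were lost was not tested. The adjusted p of ass1 also missed the threshold in limma-voom (0.059), with no filter (0.058), the stricter filter (0.05003) and the replicate block (0.059). Its log2 fold changes in these fits were 1.89, 1.91, 1.91 and 1.9, and the cause was not tested. The counts over all components ran from 338 to 1337 higher and 45 to 518 lower with 1 library left out, fewest without control a and most without hypoxia c (596 and 106 without hypoxia a, 607 and 99 without hypoxia b, 430 and 88 without control b), and were 2337 and 1479 without both letter c libraries. Lower calls numbered 754 in DESeq2 and 798 with the replicate block. Of the listed genes, 0 to 8 rose and 0 to 2 fell with 1 library left out, and 11 rose and 7 fell without both letter c libraries. The number that rose was 3 in limma-voom, 3 with no filter, 8 with the replicate block and 8 with all components of each name. The block changed no other call of a member. The mean log2 ratio of ARG2 to Odc1 ran from 2.26 to 2.99. There were only 3 pools a group, and ARG2 had 74 to 464.98 counts a library. How far pool number or depth limits precision was not tested.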
